A study of Mus musculus with 10 samples.

Results

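In sorted mouse cortical cells 10 genes of the engulfment machinery were followed: the receptors Mertk, Axl, Tyro3, Megf10, Itgav and Itgb5, the bridging ligands Gas6, Pros1 and Mfge8, and the adaptor Gulp1. They were chosen by name, and each was read by its brightest probe set among those that the platform annotation pairs with that symbol alone. All 10 were found, and 10 of 10 passed the filter on dim probe sets, a mean log2 level at or above the 25th percentile of 5.32, which kept 17712 genes in all. Only Itgav had a second probe set, which lay close to the filter (mean log2 level 5.38, against 9.99 for the one used).

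Phagocytic glia recognise phosphatidylserine, a lipid that dying cells and some synapses expose. TYRO3, AXL and MERTK, the TAM receptor tyrosine kinases, do not bind the lipid themselves and are linked to it by GAS6, which binds all of them, or by protein S, the product of Pros1, best known as a ligand of TYRO3 and MERTK. MFGE8 bridges the same lipid to the integrins alpha v beta 5 and alpha v beta 3, of which Itgav and Itgb5 encode subunits, whereas MEGF10 is an engulfment receptor whose cytoplasmic tail can be bound by the adaptor GULP1. Astrocytes are known to engulf synapses through MEGF10 and MERTK, microglia also use MERTK, and in mouse brain Megf10, Mfge8 and Gulp1 are known mainly from astrocytes and Itgb5 and Pros1 strongly from microglia. Axl and Gas6 are known from several cell types, and Tyro3 is best known from neurons and oligodendrocytes.

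RNA was measured on 10 Affymetrix arrays of cells sorted from the cortex of mice aged 8 weeks by an EGFP reporter in astrocytes. Of these, 5 were labelled Control, with wild-type genotype, and 5 were labelled FMR1-KO, in which the gene for the RNA-binding protein FMRP is meant to be disrupted. The promoter that drives the reporter, the strain, the FMR1 allele and any pooling of animals could not be learned from the labels. The replicates are called biological, and no label ties them to separate animals, so the p-values cover sample-to-sample spread, which may be technical in part. Precision is limited by the number of arrays. Values are log2 signal levels per probe set; levels of different probe sets are not on one scale and are not set against each other.

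The material was not read as astrocytes alone. The astrocyte markers Aldh1l1, Aqp4 and Slc1a2 had Control means of 8.75, 9.68 and 11.1, and the microglia markers P2ry12, Cx3cr1 and Tmem119 had Control means of 11.8, 11.5 and 9.06. The mean of 28 measured microglia and macrophage markers, of 30 fixed, was 9.74 on Control array 1, 10.5 to 10.7 on the other Control arrays, 9.62 and 9.06 on FMR1-KO arrays 1 and 2, and 10.1 to 10.4 on FMR1-KO arrays 3 to 5. The mean of 36 measured astrocyte markers, of 37 fixed, ran the other way, at 10.2 on Control array 1, 10.6 and 10.7 on FMR1-KO arrays 1 and 2, and 9.49 to 9.92 on the other 7 arrays. Fmr1 read 8.04 ± 0.26 (SD, n = 5) on Control and 8.22 ± 0.15 (SD, n = 5) on FMR1-KO arrays, so its signal was not lower under the FMR1-KO label. Which exons were disrupted is not in the labels, and the directions below rest on the group labels. On Control arrays 2 and 3 the X-inactivation RNA Xist was high, at 10.60 and 10.98, against 4.98 to 5.23 for the remaining 8 arrays. The Y-linked gene Uty was low on the same 2 arrays, at 4.82 and 4.77, against 7.64 to 8.30 for the remaining 8. Both arrays are Control and no FMR1-KO array had this pattern, so these sex-linked signals are not balanced between the groups.

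The comparison of FMR1-KO with Control asked whether loss of FMRP changed these transcripts. None of the 10 genes passed the test. Megf10, Axl, Gulp1 and Mfge8 had higher means on the FMR1-KO arrays, with differences from 0.29 to 0.43 on the log2 scale, and Pros1, Itgb5 and Gas6 had lower means, with differences from -0.53 to -0.22. Mertk, Tyro3 and Itgav differed by 0.02 to 0.10. In limma, 0 of 10 genes had a Benjamini-Hochberg adjusted p under 0.05 over all genes, where the background is 0% of genes, and the smallest adjusted p of the 10 was 0.659. At an unadjusted p under 0.05 limma placed 0 of 10, against 7.53% of all genes. That is 1334 genes, and the number ran from 794 without FMR1-KO array 2 to 2427 without Control array 1, where 3 of the 10 (Itgb5, Megf10 and Pros1) were among them. The groups overlapped in 10 of 10 genes, while 0.965% of all genes had groups that did not overlap. Means were higher on FMR1-KO arrays for 7 of 10 genes, and lower for 3, against 46.8% and 53.2% of all genes, with a median difference of 0.07 over the 10 and -0.01 over all genes. With the astrocyte marker mean in the fit only 3 of 10 means were higher. In the same comparison all 36 measured astrocyte markers had a higher mean on FMR1-KO arrays, with a median difference of 0.38. All 28 measured microglia and macrophage markers had a lower one, with a median of -0.56. Megf10, Axl, Gulp1, Mfge8, Pros1 and Itgb5 followed the marker means (below), so their directions cannot be told apart from this shift of the marker lists. Mertk, Tyro3, Gas6 and Itgav passed a relation with neither mean. The cause of any direction was not tested.

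**Figure D1:**
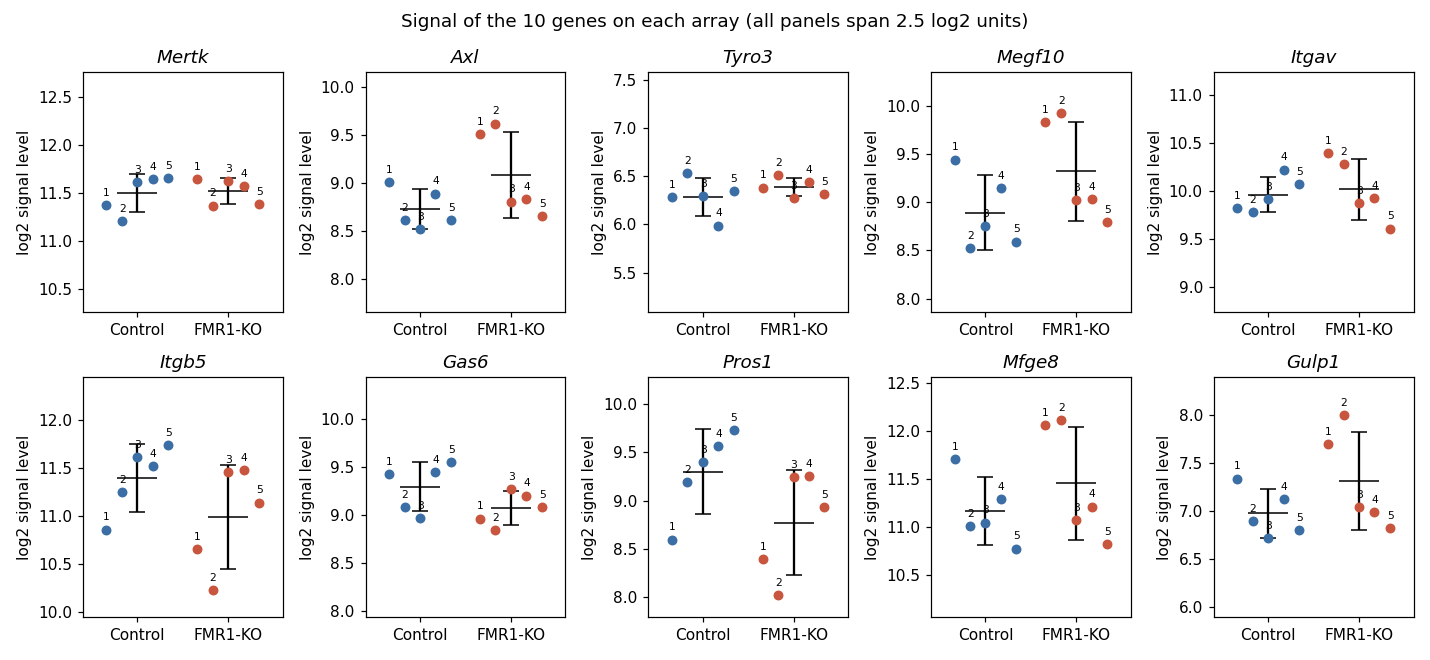
Log2 signal level of each gene (vertical axes, each spanning 2.5 log2 units) on the 5 Control and 5 FMR1-KO arrays, with points numbered by array and lines giving the mean and SD. Megf10, Axl, Mfge8 and Gulp1 were highest, and Pros1 and Itgb5 lowest, on FMR1-KO arrays 1 and 2, and the groups overlap in every panel.

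Among the TAM receptors, Axl varied and Mertk and Tyro3 varied little. Axl read 9.01, 8.62, 8.52, 8.89 and 8.61 on Control arrays 1 to 5 and 9.51, 9.62, 8.81, 8.83 and 8.65 on FMR1-KO arrays 1 to 5. The 2 highest arrays were both FMR1-KO, the other 3 FMR1-KO arrays lay within the Control range, and Control array 1 was the highest of its group. The Axl means were 8.73 ± 0.21 and 9.08 ± 0.44 (SD, n = 5 each), a difference of 0.35 ± 0.19 (SE; 95% interval -0.06 to 0.77; limma adjusted p = 0.67). Without FMR1-KO array 2 it was 0.22. The SD of Axl over the 10 arrays was 0.38, above that of 90.2% of genes.

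Mertk read 11.38, 11.21, 11.62, 11.65 and 11.66 on Control arrays 1 to 5 and 11.65, 11.37, 11.63, 11.57 and 11.39 on FMR1-KO arrays 1 to 5. The groups lay on top of each other, with Control array 2 lowest of all. The Mertk means were 11.50 ± 0.20 and 11.52 ± 0.13 (SD, n = 5 each), a difference of 0.02 ± 0.11 (SE; 95% interval -0.22 to 0.25; limma adjusted p = 0.975). Its SD over all arrays, 0.16, was under the median of 0.18 over all genes. The sign of the Mertk difference turned in 8 of 22 alternative settings, down to -0.05, so no direction is given for Mertk.

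Tyro3 read 6.28, 6.54, 6.30, 5.99 and 6.34 on Control arrays 1 to 5 and 6.38, 6.51, 6.28, 6.44 and 6.32 on FMR1-KO arrays 1 to 5. Control array 4 was the lowest and Control array 2 the highest of all 10 arrays, so the FMR1-KO range fell inside the Control range. The Tyro3 means were 6.29 ± 0.20 and 6.39 ± 0.09 (SD, n = 5 each), a difference of 0.10 ± 0.10 (SE; 95% interval -0.12 to 0.32; limma adjusted p = 0.817). Without Control array 4 it was 0.02 and without Control array 2 it was 0.16. The Tyro3 probe set was dim, with a mean log2 level of 6.34, near the array medians of 6.11 to 6.24. This limits what its small spread and its relations to other genes can show.

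Megf10, the engulfment receptor of astrocytes, and its adaptor Gulp1 moved across the arrays as Axl did. Megf10 read 9.45, 8.52, 8.76, 9.15 and 8.59 on Control arrays 1 to 5 and 9.83, 9.93, 9.02, 9.04 and 8.79 on FMR1-KO arrays 1 to 5. FMR1-KO arrays 1 and 2 were highest and Control array 1 came next, with the remaining FMR1-KO arrays inside the Control range. The Megf10 means were 8.89 ± 0.39 and 9.32 ± 0.52 (SD, n = 5 each), a difference of 0.43 ± 0.25 (SE; 95% interval -0.11 to 0.96; limma adjusted p = 0.678). Gulp1 read 7.33, 6.89, 6.71, 7.12 and 6.80 on Control arrays 1 to 5 and 7.70, 8.00, 7.03, 6.98 and 6.82 on FMR1-KO arrays 1 to 5. The order of the highest 3 arrays was FMR1-KO 2, FMR1-KO 1 and Control 1, and FMR1-KO arrays 3 to 5 again lay among the controls. The Gulp1 means were 6.97 ± 0.25 and 7.31 ± 0.51 (SD, n = 5 each), a difference of 0.33 ± 0.22 (SE; 95% interval -0.14 to 0.81; limma adjusted p = 0.699). Without FMR1-KO array 2 the difference was 0.16 for Gulp1 and 0.28 for Megf10.

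The integrin subunit genes Itgav and Itgb5 encode a receptor for MFGE8. Itgav read 9.83, 9.78, 9.92, 10.22 and 10.08 on Control arrays 1 to 5 and 10.40, 10.28, 9.88, 9.92 and 9.61 on FMR1-KO arrays 1 to 5. FMR1-KO array 1 was the highest and FMR1-KO array 5 the lowest of all arrays. The Itgav means were 9.96 ± 0.18 and 10.02 ± 0.32 (SD, n = 5 each), a difference of 0.05 ± 0.15 (SE; 95% interval -0.27 to 0.38; limma adjusted p = 0.943). The sign of the Itgav difference turned in 7 of 22 alternative settings, among them the fit without FMR1-KO array 1, where it was -0.04, and without FMR1-KO array 2, where it was -0.01. The second Itgav probe set, which is dim, differed by 0.00033.

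Itgb5 read 10.86, 11.24, 11.61, 11.52 and 11.74 on Control arrays 1 to 5 and 10.66, 10.22, 11.45, 11.48 and 11.13 on FMR1-KO arrays 1 to 5. FMR1-KO arrays 2 and 1 and Control array 1 were the lowest 3 of all, while FMR1-KO arrays 3 and 4 lay among the controls. The Itgb5 means were 11.39 ± 0.35 and 10.99 ± 0.54 (SD, n = 5 each), a difference of -0.40 ± 0.24 (SE; 95% interval -0.94 to 0.13; limma adjusted p = 0.685). Without FMR1-KO array 1 the difference was -0.32 and without FMR1-KO array 2 it was -0.21, and with the microglia marker mean in the fit the sign turned to 0.09.

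Of the ligands, Pros1 had the largest difference of the 10 genes. Pros1 read 8.59, 9.19, 9.40, 9.57 and 9.74 on Control arrays 1 to 5 and 8.39, 8.02, 9.25, 9.26 and 8.93 on FMR1-KO arrays 1 to 5. All 5 FMR1-KO arrays lay below the Control mean, although Control array 1 read below FMR1-KO arrays 3 to 5. The Pros1 means were 9.30 ± 0.44 and 8.77 ± 0.55 (SD, n = 5 each), a difference of -0.53 ± 0.26 (SE; 95% interval -1.11 to 0.05; limma adjusted p = 0.659). It was -0.34 without FMR1-KO array 2 and -0.71 without Control array 1. Over the 10 arrays Pros1 spanned 1.72 log2 units, and its SD was above that of 97.5% of genes.

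Gas6 read 9.43, 9.09, 8.97, 9.45 and 9.55 on Control arrays 1 to 5 and 8.97, 8.85, 9.27, 9.20 and 9.09 on FMR1-KO arrays 1 to 5. All 5 FMR1-KO arrays lay below the Control mean, and Control arrays 2 and 3, the Xist-high ones, were the lowest of their group. The Gas6 means were 9.30 ± 0.25 and 9.08 ± 0.17 (SD, n = 5 each), a difference of -0.22 ± 0.13 (SE; 95% interval -0.50 to 0.06; limma adjusted p = 0.678). Without Control arrays 2 and 3 the Gas6 difference was -0.40 ± 0.11 (SE), unadjusted p = 0.00531 and adjusted p = 0.892 in limma, the adjusted p running from 0.531 to 0.999 over all alternatives. The part of Xist-high arrays in the Gas6 values was not tested further.

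Mfge8 read 11.70, 11.01, 11.05, 11.29 and 10.77 on Control arrays 1 to 5 and 12.06, 12.11, 11.07, 11.21 and 10.83 on FMR1-KO arrays 1 to 5. FMR1-KO arrays 1 and 2 and Control array 1 were the highest 3, and the other FMR1-KO arrays lay inside the Control range. The Mfge8 means were 11.16 ± 0.35 and 11.45 ± 0.59 (SD, n = 5 each), a difference of 0.29 ± 0.26 (SE; 95% interval -0.27 to 0.85; limma adjusted p = 0.771). Without FMR1-KO array 1 it was 0.14, without FMR1-KO array 2 it was 0.13, without Control array 5 it was 0.19 and without FMR1-KO array 5 it was 0.45.

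A second comparison set each gene beside the marker means, to describe astrocyte against microglia origin of the signal. Across all 10 arrays Megf10, Mfge8, Axl and Gulp1 followed the astrocyte markers, and Pros1 and Itgb5 followed the microglia markers. Mertk, Tyro3, Gas6 and Itgav passed the test with neither. None of the 10 genes is in a marker list. The 2 marker means were themselves opposed over the 10 arrays (Pearson r = -0.912, permutation p = 0.00082; Spearman rho = -0.830, permutation p = 0.00523; r = -0.743 without the 2 arrays farthest from the median), so a relation to one is not separate from a relation to the other. In these bulk samples fewer cells of a type and less RNA per cell cannot be told apart.

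Megf10 had the highest correlation with the astrocyte mean of the 10 genes, with r = 0.984 (permutation p = 1e-05, the smallest that the 100000 resamples can give; adjusted p = 0.0023 over all genes) and rho = 0.976 (permutation p = 1e-05). Mfge8 followed with r = 0.982 (permutation p = 4e-05, adjusted p = 0.00342) and rho = 0.952 (permutation p = 8e-05), Axl with r = 0.977 (permutation p = 3e-05, adjusted p = 0.00324) and rho = 0.952 (permutation p = 7e-05). Gulp1 had r = 0.968 (permutation p = 8e-05, adjusted p = 0.00437) and rho = 0.903 (permutation p = 0.00057). Per unit of the astrocyte mean on the log2 scale, the fitted slopes were 1.12 for Megf10, 1.10 for Mfge8, 0.94 for Gulp1 and 0.86 for Axl. Without FMR1-KO arrays 1 and 2, the 2 farthest from the median, r was 0.956 for Megf10, 0.938 for Mfge8, 0.902 for Axl and 0.888 for Gulp1. On deviations from each group's mean r ran from 0.963 to 0.996 for these 4 genes, so the relation was as close inside the groups.

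Itgb5 and Pros1 gave the reverse picture. With the microglia mean, Pros1 had r = 0.982 (permutation p = 1e-05, adjusted p = 0.00124) and rho = 0.952 (permutation p = 0.00011), and Itgb5 had r = 0.978 (permutation p = 3e-05, adjusted p = 0.0019) and rho = 0.964 (permutation p = 6e-05). Slopes were 0.97 for Pros1 and 0.85 for Itgb5 per log2 unit of the microglia mean. Without FMR1-KO arrays 1 and 2 r was 0.956 for Pros1 and 0.923 for Itgb5, and on group deviations it was 0.976 and 0.977.

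**Figure D2:**
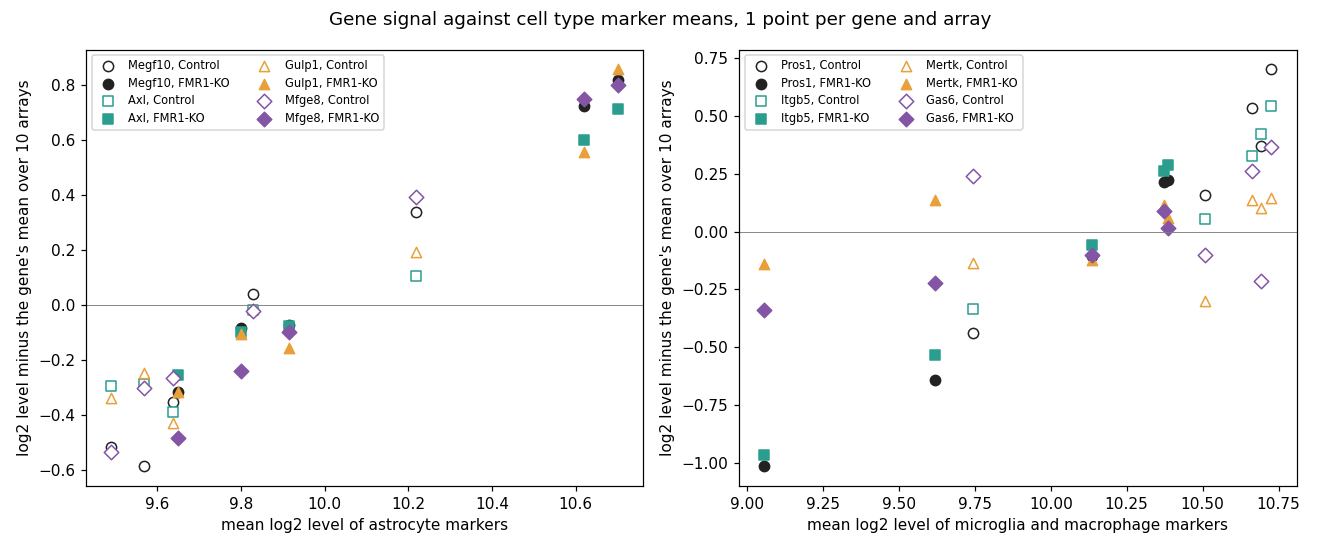
Each gene's log2 level minus its own mean over the 10 arrays (vertical axis) against the mean log2 level of the astrocyte markers (left) or of the microglia and macrophage markers (right), with open symbols for Control and filled symbols for FMR1-KO arrays. Megf10, Axl, Gulp1 and Mfge8 climb together with the astrocyte markers and Pros1 and Itgb5 with the microglia markers, while Mertk and Gas6 scatter.

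In numbers, 4 of 10 genes had a positive relation to the astrocyte mean past the adjusted threshold, against 11.6% of all genes, and 2 of 10 a negative one, against 6.46%. With the microglia mean 2 of 10 were positive, against 8.41%, and 4 of 10 negative, against 8.77%. These 12 relations, of 20 computed, belong to the same 6 genes, and the counts are of Pearson r. By Spearman rho the positive ones passed too, with permutation p adjusted over all genes of 0.0041 to 0.0275. The negative ones did not pass by rho, with adjusted p of 0.058 to 0.169. Over all 17712 genes, Megf10 stood at the 99.8th percentile of r with the astrocyte mean and Gulp1 at the 99.2nd, and Pros1 at the 99.7th and Itgb5 at the 99.4th percentile of r with the microglia mean.

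The number of relations past the threshold, and the opposed relations most, depended on the arrays at the ends of the range. Control array 1 and FMR1-KO arrays 1 and 2 were left out together, a choice made after the data were seen. Among the 7 arrays that remain, 0 of 20 relations passed the adjusted threshold. So few arrays allow few orders, which makes that threshold hard to reach, and the 0 is not read as a loss of the relations. The share of all genes passing was not computed for these 7 arrays. There r with the astrocyte mean was 0.924 for Megf10 (exact permutation p = 0.00635, n = 7), 0.837 for Axl (exact p = 0.0288, n = 7), 0.828 for Mfge8 (exact p = 0.0252, n = 7) and 0.730 for Gulp1 (exact p = 0.0687, n = 7), all unadjusted. With the microglia mean it was 0.908 for Pros1 (exact p = 0.00456, n = 7) and 0.817 for Itgb5 (exact p = 0.0266, n = 7). Itgav, which passed with neither mean over all arrays, had r = 0.790 with the microglia mean there (exact permutation p = 0.0359, n = 7, unadjusted). The opposed relations did not hold there: Megf10 had r = -0.171 with the microglia mean (exact p = 0.721, n = 7) and Pros1 had r = -0.188 with the astrocyte mean (exact p = 0.683, n = 7). Without FMR1-KO array 1, or without FMR1-KO array 2, 6 of 20 relations passed, namely the 4 genes with the astrocyte mean and Pros1 and Itgb5 with the microglia mean. Without Control array 1 there were 8.

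The other 4 genes passed the adjusted threshold with neither mean at this number of arrays. Mertk had r = -0.05 with the astrocyte mean (permutation p = 0.886) and 0.35 with the microglia mean (permutation p = 0.322), with rho of -0.16 (permutation p = 0.657) and 0.39 (permutation p = 0.261). Gas6 had r = -0.46 (permutation p = 0.186) and 0.52 (permutation p = 0.124), with rho of -0.39 (permutation p = 0.263) and 0.54 (permutation p = 0.114), and without FMR1-KO arrays 1 and 2 both values of r changed sign, to 0.27 and -0.04. Without the Xist-high Control arrays 2 and 3 r was larger in size, at -0.71 and 0.78 for Gas6 and at -0.31 and 0.64 for Mertk. Tyro3 had r = 0.23 (permutation p = 0.529) and -0.40 (permutation p = 0.253). Itgav had r = 0.64 with the astrocyte mean (permutation p = 0.0466, adjusted p = 0.156 over all genes), which rested on FMR1-KO arrays 1 and 2, since r was -0.01 without them. With the microglia mean Itgav had r = -0.36 (permutation p = 0.303), which turned to 0.60 without the same 2 arrays.

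**Figure D3:**
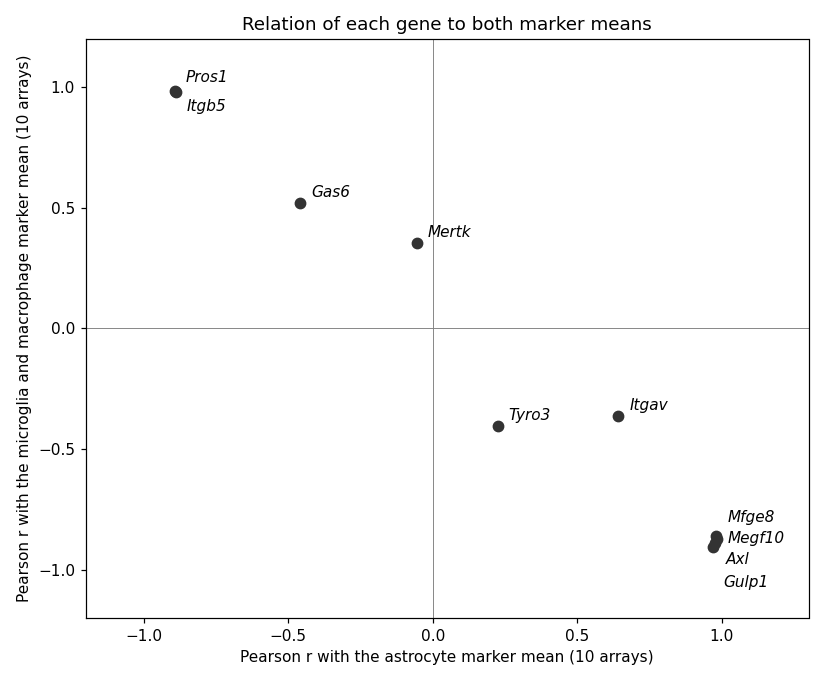
Pearson r of each gene with the astrocyte marker mean (horizontal axis) and with the microglia and macrophage marker mean (vertical axis), over the 10 arrays, 1 point per gene. Megf10, Mfge8, Axl and Gulp1 lie at the lower right, Pros1 and Itgb5 at the upper left, and Mertk, Tyro3, Gas6 and Itgav between them.

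With a marker mean in the fit, the group differences of Megf10, Axl, Gulp1, Pros1 and Itgb5 lay closer to 0, while that of Mfge8 turned to a lower mean. On the same arrays these genes had followed the marker means, and the marker means differed between the groups. Such a move was therefore largely set by those relations and is not separate evidence. With the microglia mean as a covariate, the FMR1-KO minus Control difference was 0.0039 ± 0.17 (SE) for Megf10, 0.03 ± 0.13 for Axl, -0.06 ± 0.13 for Gulp1, -0.17 ± 0.16 for Mfge8, 0.01 ± 0.10 for Pros1 and 0.09 ± 0.10 for Itgb5. With the astrocyte mean instead, Megf10 differed by -0.01 ± 0.09, Axl by 0.03 ± 0.09, Gulp1 by -0.04 ± 0.10, Pros1 by -0.12 ± 0.16 and Itgb5 by -0.02 ± 0.15. Mfge8 differed by -0.18 ± 0.08 in that fit, with unadjusted p = 0.0462 and adjusted p = 0.782 in limma. No gene of the 10 passed the adjusted threshold with either covariate. Gas6 kept a lower mean in both fits, at -0.14 ± 0.14 and -0.16 ± 0.14. At an unadjusted p under 0.05 the microglia covariate left 0 of the 10 genes, against 4.56% of all genes, and the astrocyte covariate 1 of 10, against 6.32%.

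**Figure D4:**
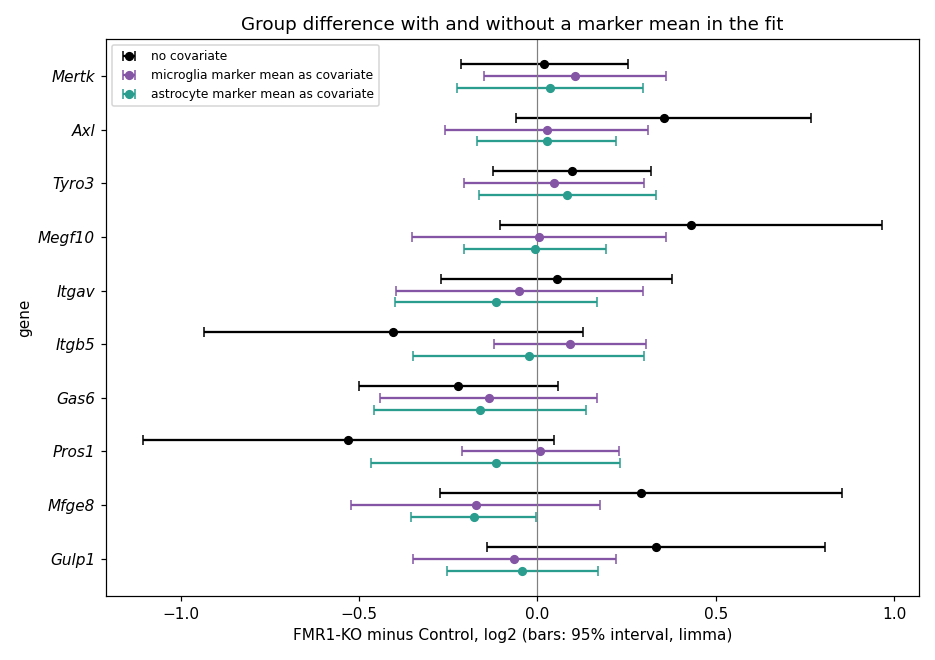
FMR1-KO minus Control difference of each gene on the log2 scale (horizontal axis) with its 95% interval from limma, without a covariate (black), with the microglia marker mean (purple) and with the astrocyte marker mean (green) in the fit. The intervals without a covariate include 0 for every gene, and the differences of Megf10, Axl, Pros1 and Itgb5 lie closer to 0 with either marker mean. That is not separate from the relation of these genes to the marker means.

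Known partners were also set beside each other, with p adjusted over all genes for each anchor gene. Of 10 such pairs, Megf10 and Gulp1 ran together (r = 0.954, permutation p = 8e-05, adjusted p = 0.00404; rho = 0.903, permutation p = 0.00072; r = 0.881 without the 2 arrays farthest from the median of Megf10). Mfge8 and its receptor subunit Itgb5 ran in opposite directions (r = -0.860, permutation p = 0.0028, adjusted p = 0.0252; rho = -0.648, permutation p = 0.0495; r = -0.564 without the 2 arrays farthest from the median of Itgb5). The integrin partners Itgav and Itgb5 had r = -0.365 over the 10 arrays (permutation p = 0.299) and 0.644 without the 2 farthest, so no direction is given. The other 7 pairs, those of Mertk, Axl and Tyro3 with Gas6, of Mertk and Tyro3 with Pros1, Mertk with Axl, and Itgav with Mfge8, did not pass. The largest of these in size was r = 0.671 for Itgav with Mfge8 (permutation p = 0.0339, adjusted p = 0.234). Axl and Pros1, which were not among the 10 partner pairs, ran in opposite directions (r = -0.848, permutation p = 0.00295, adjusted p = 0.0261; rho = -0.685, permutation p = 0.0348; r = -0.454 without the 2 arrays farthest from the median of Axl). By rho, with permutation p adjusted over all genes, Megf10 with Gulp1 passed (adjusted p = 0.0293). Mfge8 with Itgb5 (adjusted p = 0.207) and Axl with Pros1 (adjusted p = 0.170) did not. The 10 genes form 45 pairs in all, and the others are not set out. Of all genes, 11.5% had a positive relation to Megf10 past the adjusted threshold, 7.53% a negative one to Itgb5 and 5.63% a negative one to Axl, so none of the 3 is rare on these arrays.

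By highest Pearson r over the 10 arrays, the genes most like Mfge8 were Gpr37l1, an astrocyte receptor in the marker list, at r = 0.993, Abhd3 at 0.991 and Glt8d1 at 0.990. Megf10 was most like Slco1c1, a thyroid hormone transporter, at r = 0.992, Fbxo2 at 0.991 and Slc7a2 at 0.990. Axl and Gulp1 were among each other's closest 3, at r = 0.989. Besides, Axl was most like Gpd2 at 0.990 and Ccdc88a at 0.990, and Gulp1 most like the transcription factor gene Sox5 at 0.987 and Glrb at 0.986. Pros1 was most like the channel gene Trpv2 at r = 0.993, Man1a2 at 0.992 and the pattern receptor gene Tlr1 at 0.991, and Itgb5 most like Il6ra at 0.997, Esyt1 at 0.995 and Abca9 at 0.995. These values were picked as the highest of 17711, so no p is given.

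The 4 genes that followed neither mean had other neighbours. Mertk was most like Polr3a at r = 0.986, Pign at 0.965 and Prmt9 at 0.961. Itgav was most like Cdc16 at 0.960, Zfp24 at 0.958 and Cd47, the do-not-eat-me signal, at 0.952. Tyro3 was most like Cacng4, a marker of oligodendrocyte precursors, at 0.937, Tmem125 at 0.918 and Dkk4 at 0.915. With the mean of the precursor markers Tyro3 had r = 0.435 (permutation p = 0.208). Gas6 was most like the chaperone gene Hsp90aa1 at 0.947, Kif5b at 0.926 and Otx2, a transcription factor gene of the choroid plexus list, at 0.920.

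The promoters of Axl, Mfge8 and Gulp1, which followed the astrocyte markers, and of Pros1 and Itgb5, which followed the microglia markers, are shown so that their sequences can be set side by side. Each run is the 250 bases before the annotated start, 5′ to 3′ on the gene's strand, from RefSeq on GRCm38.p6, with capitals for the GC box GGGCGG or its reverse complement CCGCCC.
Axl, chr7:25788734-25788983, minus strand: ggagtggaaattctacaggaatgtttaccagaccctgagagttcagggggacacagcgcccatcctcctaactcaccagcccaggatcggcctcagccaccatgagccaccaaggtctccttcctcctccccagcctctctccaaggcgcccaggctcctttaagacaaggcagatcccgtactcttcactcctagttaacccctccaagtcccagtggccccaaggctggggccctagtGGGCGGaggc
Mfge8, chr7:79149061-79149310, minus strand: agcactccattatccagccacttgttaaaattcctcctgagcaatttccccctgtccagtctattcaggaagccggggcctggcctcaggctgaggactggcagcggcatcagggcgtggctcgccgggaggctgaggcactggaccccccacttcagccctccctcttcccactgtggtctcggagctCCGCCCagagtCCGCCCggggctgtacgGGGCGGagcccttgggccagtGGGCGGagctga
Gulp1, chr1:44551421-44551670, plus strand: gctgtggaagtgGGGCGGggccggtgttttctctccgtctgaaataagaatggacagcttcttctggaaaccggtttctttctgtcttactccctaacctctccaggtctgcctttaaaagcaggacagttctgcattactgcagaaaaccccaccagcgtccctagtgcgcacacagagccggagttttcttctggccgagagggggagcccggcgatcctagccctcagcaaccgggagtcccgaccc
Pros1, chr16:62854057-62854306, plus strand: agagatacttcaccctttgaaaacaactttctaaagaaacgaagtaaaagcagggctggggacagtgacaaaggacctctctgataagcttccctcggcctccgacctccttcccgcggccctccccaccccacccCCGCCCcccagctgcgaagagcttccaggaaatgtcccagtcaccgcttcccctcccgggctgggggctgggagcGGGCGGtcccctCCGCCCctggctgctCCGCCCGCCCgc
Itgb5, chr16:33829415-33829664, plus strand: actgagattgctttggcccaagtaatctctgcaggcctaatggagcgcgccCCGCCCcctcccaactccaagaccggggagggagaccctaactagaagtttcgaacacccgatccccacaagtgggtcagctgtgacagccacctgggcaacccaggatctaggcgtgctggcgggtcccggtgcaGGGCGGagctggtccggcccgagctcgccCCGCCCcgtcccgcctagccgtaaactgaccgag

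These windows held 60.0% G and C for Axl, 65.2% for Mfge8, 56.8% for Gulp1, 64.4% for Pros1 and 65.2% for Itgb5, against a median of 52.4% over 32536 distinct windows of this length. GC boxes, searched on both strands with overlapping matches counted, were found 1 time each for Axl and Gulp1, 4 times for Mfge8, 5 times for Pros1 and 3 times for Itgb5, thus on both sides of the astrocyte and microglia split. Of 9 genes searched 8 held at least 1, against 33.0% of all windows. The Ets core GAGGAA was found in 3 of 9, against 23.4% of windows. The NFI half-site TTGGCA, the AP-1 site TGACTCA, the Sox site AACAAT, the E-box CACGTG and the TATA box TATAAA were found in 0 of 9, against 12.3%, 4.45%, 9.35%, 6.04% and 12.3% of all windows.

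Other genes of engulfment, from 4 lists, showed no call either, with 0 of 68 measured genes past the adjusted threshold in limma. Among other engulfment receptors and integrins 6 of 22 measured genes had a higher and 16 a lower mean on FMR1-KO arrays, with a median difference of -0.16. Of all genes 46.8% had a higher mean, which is the background for each list here. In this list 4 of 22 were higher without FMR1-KO array 5, 7 without FMR1-KO array 3 and 9 with the microglia mean as a covariate. Unadjusted p was under 0.05 for 1 gene with a higher mean, against 4% of all genes, and for 3 with a lower mean, against 3.53%. The first was Adgrb3 at 0.57 ± 0.23 (SE), and the other 3 were the Fc receptor gene Fcgr3 at -0.58 ± 0.22, the lipid receptor gene Trem2 at -0.60 ± 0.25 and the integrin gene Itgb3 at -0.51 ± 0.23. Itgb3 encodes the other beta partner of alpha v for MFGE8, and like Itgb5 it followed the microglia mean (r = 0.983, permutation p = 1e-05, adjusted p = 0.00124 over all genes; rho = 0.988, permutation p = 1e-05; r = 0.976 without the 2 farthest arrays). In this list 9 of 22 genes had a positive relation to the microglia mean past the adjusted threshold, against 8.41% of all genes, and 3 a negative one, against 8.77%. Of the 22 genes 3 belong to the microglia list and so to the mean itself, and among the other 19 there were 6 positive and 3 negative relations.

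Engulfment signalling and cargo genes had 4 of 19 higher and 15 lower means, with a median of -0.06. Without FMR1-KO array 5, and also with the microglia mean as a covariate, 10 of 19 were higher, so no lean is read from this list. Dock1, the exchange factor for RAC1 downstream of these receptors, differed by 0.29 ± 0.12 (SE) and its partner Elmo2 by 0.27 ± 0.14, while the microglial adaptor gene Tyrobp differed by -0.77 ± 0.32 and Rac1 by -0.22 ± 0.12. Dock1 and Elmo2 had positive relations to the astrocyte mean, with r of 0.880 (permutation p = 0.00077, adjusted p = 0.012) and 0.876 (permutation p = 0.00152, adjusted p = 0.0173), and r of 0.630 and 0.472 without the 2 farthest arrays. Of the 19 genes, none of them in the astrocyte list, 4 were positive and 6 negative with that mean, against 11.6% and 6.46% of all genes.

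Exposure and eat-me or do-not-eat-me genes had 4 of 15 higher and 11 lower means, with a median of -0.13. Without FMR1-KO array 1 there were 2 of 15 higher, and with the microglia mean as a covariate 6 of 15. C1qc, C1qa and C1qb, subunits of the complement recognition protein and members of the microglia list as well, differed by -0.67 ± 0.28, -0.63 ± 0.27 and -0.47 ± 0.24 (SE), and Tmem30a, a flippase subunit, by -0.29 ± 0.16. Regulators of TAM receptors and of their ligands had 4 of 12 higher and 8 lower means, with a median of -0.17. Without Control array 2 there were 2 of 12 higher, and with the microglia mean as a covariate 8 of 12. Here Vkorc1, which recycles the vitamin K that GAS6 and protein S need for carboxylation, differed by -0.43 ± 0.16 (SE), and Adam10, a membrane sheddase, by -0.44 ± 0.17. Rxra differed by -0.19 ± 0.10 and Socs3, a feedback inhibitor of cytokine signalling, by -0.36 ± 0.22. Vkorc1 had r = 0.324 with the microglia mean (permutation p = 0.357) and -0.03 with the astrocyte mean (permutation p = 0.930), while Adam10 had r = 0.965 with the microglia mean (permutation p = 1e-05, adjusted p = 0.00124). The limma adjusted p was 0.654 or higher for each gene named from these lists, and 7 genes of the lists are in the microglia marker list too.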

How the data were processed

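Labelled cDNA of 10 samples, 5 Control and 5 FMR1-KO, was hybridised to Affymetrix arrays. Per the labels' protocols, cells were sorted by FACS on EGFP and their RNA was amplified and biotin-labelled with Affymetrix whole-transcript kits. The authors deposited log2 signal levels per probe set; the log2 scale was read from the values (4.31 to 13.9, array medians 6.11 to 6.24). How they corrected background, normalized and summarised probe sets is not given in the sources used here; per the series' design text, GeneSpring 13.1.1 served for their comparison.

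In GEO's platform annotation 23521 of 33793 probe sets have 1 symbol, 1814 several and 8458 none listed. For each gene the brightest single-symbol probe set was kept, and those with a mean under the 25th percentile (log2 level 5.32) were left out, leaving 17712 genes. All 10 genes described matched a current RefSeq symbol by gene ID. Differences are FMR1-KO minus Control, tested two-sided in R 4.3.3 by limma 3.58.1 (lmFit, eBayes), with Benjamini-Hochberg adjustment over all genes at 0.05. Correlations over 10 arrays used two-sided permutation tests with 100000 resamples (NumPy 2.4.6), exact for 8 or fewer arrays. They were adjusted over all genes instead of over the 10, which the design had foreseen. The tests were checked on simulated data with noise independent between genes, and the limma check required recovery only of the largest planted change. It does not show that differences as small as those of the 10 genes would be found.

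The 10 genes, the lists and the alternatives were chosen with earlier results of these data known. Named beside the 10 genes are up to 4 genes with the smallest unadjusted p of each engulfment list, and fixed marker and check genes. The 3 genes most correlated with each of the 10 are named too, with predicted, small RNA, olfactory and vomeronasal receptor genes skipped. Alternatives were other normalizations, filters, probe set rules, moderation, weights, the replicate block, marker means as covariates and leaving out arrays. The Megf10 promoter is not reported here.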

Additional observations from a re-analysis of the deposited data

Results flagged for a closer look

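The microglia and macrophage marker mean of Control array 1, at 9.74, lay far from the other Control arrays, which ran from 10.5 to 10.7. Its gap to the nearest of them was 0.776 of the group's range, above the critical value of 0.71 for 5 samples. Of 24 groups examined (10 genes and 2 marker means in each genotype) this was the 1 flagged, and chance alone flags about 1 group in 20. On the same array Pros1 and Itgb5 were the lowest of the Control group, and Megf10, Axl, Gulp1 and Mfge8 the highest. Without Control array 1, Pros1 differed by -0.71 ± 0.24 (SE; limma adjusted p = 0.258), Megf10 by 0.57 ± 0.24 (adjusted p = 0.331) and Itgb5 by -0.54 ± 0.24 (adjusted p = 0.354). These are larger than over all arrays; without FMR1-KO array 2 they were smaller, at -0.34 for Pros1, 0.28 for Megf10 and -0.21 for Itgb5.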

How the results depend on the processing

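Of the 10 genes, 0 passed the adjusted threshold of limma in any of 22 alternative settings, and 0 of the other engulfment genes did. Over all genes, 1 passed without Control array 5 (Cnbd2, -0.74, adjusted p = 0.0237), and 0 to 1 passed over the fits without 1 array. There was 1 without Control array 1 and FMR1-KO arrays 1 and 2 (Tlcd1, 2.06, adjusted p = 0.0225). Higher means numbered 7 of the 10 genes, 5 to 7 without 1 array and 3 with the astrocyte mean as covariate. The sign turned for Gulp1 (-0.065 with the microglia mean, -0.043 with the astrocyte mean), Mfge8 (-0.17 and -0.18), Itgb5 and Pros1 (0.090 and 0.0085, microglia mean) and Megf10 (-0.0077, astrocyte mean). Itgav turned with array weights (-0.061), the microglia (-0.051) and astrocyte mean (-0.12), without the Xist-high Control arrays 2 and 3 (-0.024) and without Control array 1 and FMR1-KO arrays 1 and 2 (-0.20), and ran from -0.041 to 0.16 without 1 array. Mertk turned with quantile normalization (-0.012), array weights (-0.0098), without the Xist-high arrays (-0.040) and without Control array 1 and FMR1-KO arrays 1 and 2 (-0.0049), and ran from -0.054 to 0.058 without 1 array. The cause was not tested.

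Of 20 relations to marker means, 12 passed, 6 to 12 without 1 array, 1 (Pros1 with the microglia mean) without the 2 arrays farthest from the median, and 0 over the 7 arrays, where fewer orders of the arrays exist. Without the 2 farthest arrays r turned for Gas6 (0.27 with the astrocyte, -0.040 with the microglia mean), Itgav (-0.013 and 0.60) and Tyro3 (-0.27, astrocyte). Over the 7 arrays it turned for Gas6 (0.0055), Mertk (0.33) and Tyro3 (-0.34) with the astrocyte mean, and for Itgav (0.79) and Mfge8 (0.15) with the microglia mean. Without 1 array, r with the astrocyte mean ran from -0.36 to 0.19 for Mertk and from -0.027 to 0.43 for Tyro3.

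Same-numbered arrays did not deviate together in every pair (correlations of deviations from -0.02 to 0.53; 1 of 10 arrays correlated best with its own number), so the numbers were not taken as pairs. With the replicate block 0 of the 10 genes passed the adjusted threshold; at an unadjusted p under 0.05 there were 4 (Axl, Itgb5, Megf10 and Pros1, adjusted p of 0.32 to 0.42) and 2080 genes in all, against 0 and 1334. Levels near the filter, such as the second Itgav probe set, limit what signal over background can show.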

Other observations

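The 10 genes were also set beside the means of 7 other marker lists (neurons, oligodendrocytes, their precursors, endothelium, pericytes and smooth muscle, fibroblasts, and choroid plexus with ependyma), which was decided after the data were seen. Of these 70 correlations 0 passed the threshold adjusted over all genes. None of the 17712 genes passed with any of the 7 means, so this is not particular to the 10 genes. An unadjusted permutation p under 0.05 was found for 9, and the share of all genes at that threshold was not computed. Axl, Itgav, Gulp1 and Mfge8 were among them with the oligodendrocyte mean (r = 0.698, 0.675, 0.655 and 0.646). Without the 2 arrays farthest from the median these were 0.407, 0.554, 0.414 and 0.450, and rho had permutation p of 0.0661 to 0.180. Mertk with the precursor mean was also among the 9 (r = -0.745, and -0.210 without the 2 arrays farthest from the median). Over all arrays the oligodendrocyte mean ran from 6.40 to 6.85 and the precursor mean from 6.35 to 6.69, not far above the array medians. Gas6 had r = 0.882 with the endothelial mean (permutation p = 0.00101, adjusted p = 0.751; rho = 0.770, permutation p = 0.0126; r = 0.742 without the 2 arrays farthest from the median). Gas6 also had r = 0.789 with the choroid plexus and ependyma mean (permutation p = 0.00648, adjusted p = 0.626; rho = 0.830, permutation p = 0.00493; r = 0.674 without the 2 farthest). The endothelial mean ran from 6.51 to 6.92 on Control and from 6.48 to 6.59 on FMR1-KO arrays, also not far above the array medians. The choroid plexus mean ran from 7.95 to 8.71 on Control and from 7.70 to 8.47 on FMR1-KO arrays. Mertk had r = -0.820 with the neuron mean (permutation p = 0.00364, adjusted p = 0.236, and rho = -0.794 with permutation p = 0.00886). Tyro3 had r = 0.651 with it (permutation p = 0.0483, adjusted p = 0.373, and rho = 0.648 with permutation p = 0.0498). Without the 2 farthest arrays r was -0.655 for Mertk and 0.576 for Tyro3. The neuron mean ran only from 5.87 to 6.15 over all arrays, near the array medians of 6.11 to 6.24. These relations therefore rest on low signal and are not read as neuronal. Ttr, a choroid plexus gene, read 13.6 ± 0.18 (SD, n = 5) on Control and 13.3 ± 0.40 (SD, n = 5) on FMR1-KO arrays.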
